A study of Mus musculus with 18 samples.

Results

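The genes described here encode proteins that remove introns from messenger RNA or choose which exons are kept. They were taken by symbol from the probes of a mouse expression array. The rule took the hnRNP proteins, the SR proteins, the subunits of SF3A and SF3B, the Sm and related snRNP proteins, the PRPF proteins, and the tissue regulators Rbm24, Rbfox1, Rbfox2, Mbnl1, Mbnl2, Celf1 and Celf2. It left out genes on the sex chromosomes, which removed Hnrnph2 with its 2 probes. This gave 66 genes on 165 probes, of 19057 named genes on 45281 probes in all. Of these, 64 genes had a probe above background on at least 3 arrays and were tested. Snrpe, with 0 arrays above background, and Srsf12, with 2, were not. Rbm20 was also named in the rule, but none of the probes used carried its symbol, so it was not analysed here.

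Introns are removed by the spliceosome, a machine of small nuclear RNAs and proteins that is built anew on each intron. U1 snRNP marks the start of the intron, U2 snRNP with SF3A and SF3B clamps the branch point, and the U4/U6.U5 particle then joins and is remodelled for catalysis. SR proteins mostly promote the use of the exons they bind, while many hnRNP proteins oppose it. RBFOX, muscleblind, CELF and RBM24 proteins set tissue patterns, and in the mouse heart muscleblind proteins are known to increase and CELF proteins to decline after birth.

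The cells carried green fluorescent protein (GFP) knocked in at Wt1, a gene known from the epicardium. They were GFP-positive cells sorted from dissociated ventricles of mouse embryos on each day between E11.5 and E16.5, and the series title calls them cardiomyocytes. Each of the stages E11.5, E12.5, E13.5, E14.5, E15.5 and E16.5 had 3 arrays, 18 in all, and every group carries the same knock-in and had the same sort. The labels do not say whether replicates were separate litters, so p-values measure the spread between these samples, which may be technical. All levels below are log2 intensities after background correction, and a level of 1 probe says nothing about the level of another. Changes are log2 differences with their standard error (SE), tested with limma across all 25362 probes above background and called at a Benjamini-Hochberg adjusted p under 0.05.

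Some arrays stood apart from the rest of their stage. E13.5 replicate 1 was closest to E14.5 replicate 1 (r = 0.990 over tested probes) and E12.5 replicate 1 was closest to E13.5 replicate 1 (r = 0.986). They were not alone in this. E15.5 replicates 1 and 2 were closest to the E16.5 arrays of the same number, and E16.5 replicates 1, 2 and 3 to those of E15.5. E13.5 replicates 2 and 3 lay away from all other arrays on the second principal component. E16.5 replicate 3 was at 16.4 on that component, against 5.3 and 2.7 for E16.5 replicates 1 and 2. On the first component it was at 42.4, against 28.6 and 34.2. Its mean over the 64 tested genes, relative to E11.5, was -0.20, against -0.09 and -0.07. Of the cell type markers, the 15 cardiomyocyte genes on the array were above background on all 18 arrays. So were 10 of 12 endothelial and 8 of 12 fibroblast genes. Ptprc of leukocytes and Sox10 of neural crest were above it on 0 arrays, each the only such gene of its list. Above background on at least 3 arrays were 4 of 7 leukocyte genes and 2 of 4 neural genes. In sorted cells measured in bulk, fewer cells of a type and less RNA per cell cannot be told apart.

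At E16.5, against E11.5, most of the genes called lower encode SF3 subunits or Sm and snRNP proteins (7 of 12), and most of those called higher are tissue regulators (4 of 5). Of the 64 tested genes 5 rose and 12 fell, which is 7.81% and 18.8% of them, beside 11.4% higher and 12.8% lower among all 12841 named genes tested. The other 47 did not pass. Without E16.5 replicate 3, 7 fell, and the rises came to 1 without E11.5 replicate 2, 2 without E16.5 replicate 1, and 3 without E11.5 replicate 3, E16.5 replicate 2 or any E14.5 array. The share of rises was below that background and the share of falls above it. No change reached a factor of 2 (0 genes in either direction), and 43 of the 64 changes were below 0. The median change was -0.12, against -0.01 over all named genes. The remaining rise was a PRPF gene. With each gene's probes averaged, that gene and Mbnl2 were still called higher. The calls of Rbfox1 (adjusted p = 0.145), Mbnl1 (0.144) and Celf2 (0.74) were then lost, so the share of tissue regulators among the rises depends on the probe chosen.

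**Figure D1:**
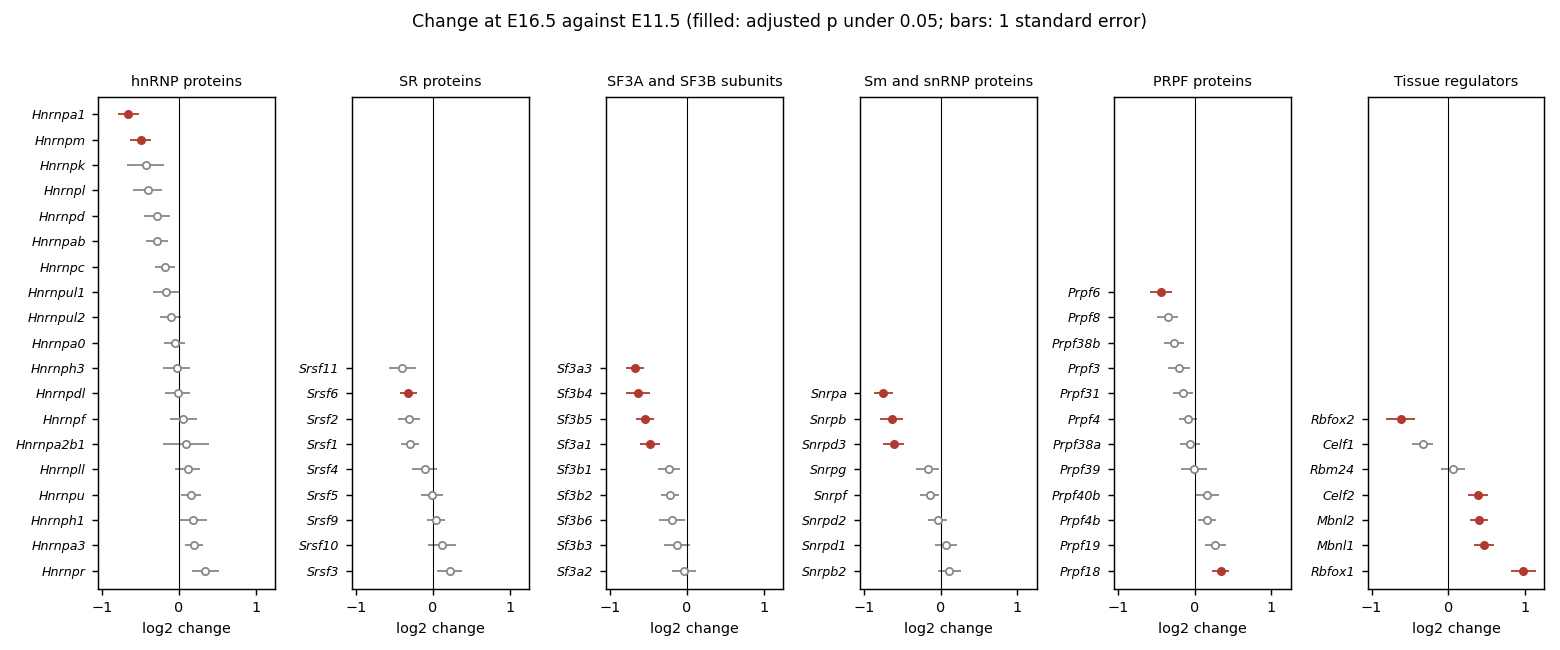
Change in log2 intensity at E16.5 against E11.5 for the 64 tested genes, in 1 panel per family, with bars of 1 standard error and filled points for an adjusted p under 0.05. All 9 SF3 genes lie left of 0, and 4 of the 5 filled points right of 0 are tissue regulators.

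The promoters of a few genes are shown because these genes fell or rose in company with others of their family. Of the 66 genes 58 matched an entry in the RefSeq promoter table for mouse assembly GRCm38.p6, and the 200 bases before the annotated start were read. For the 14 genes with several listed promoters only the first was read, and which promoter these cells use was not analysed. Capitals mark the E-box CACGTG, the CCAAT box CCAAT, the GC box GGGCGG and the TATA box TATAAA on either strand, where neighbouring matches may merge. Snrpa, Sf3a3 and Snrpd3 fell, and Mbnl1 and Mbnl2 rose.
Snrpa, chr7:27196272-27196471, minus strand: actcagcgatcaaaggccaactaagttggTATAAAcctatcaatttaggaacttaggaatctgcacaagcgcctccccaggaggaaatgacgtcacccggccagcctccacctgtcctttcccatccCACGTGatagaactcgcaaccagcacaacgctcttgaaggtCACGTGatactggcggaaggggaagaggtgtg
Sf3a3, chr4:124714661-124714860, plus strand: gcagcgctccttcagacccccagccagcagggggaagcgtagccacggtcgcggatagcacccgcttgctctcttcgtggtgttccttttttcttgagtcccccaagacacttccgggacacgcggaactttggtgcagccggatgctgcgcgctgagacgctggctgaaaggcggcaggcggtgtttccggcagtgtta
Snrpd3, chr10:75517842-75518041, plus strand: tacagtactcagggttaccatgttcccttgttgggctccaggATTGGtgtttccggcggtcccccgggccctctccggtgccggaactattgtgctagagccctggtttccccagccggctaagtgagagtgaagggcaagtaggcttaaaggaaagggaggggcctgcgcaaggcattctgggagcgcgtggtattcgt
Mbnl1, chr3:60472630-60472829, plus strand: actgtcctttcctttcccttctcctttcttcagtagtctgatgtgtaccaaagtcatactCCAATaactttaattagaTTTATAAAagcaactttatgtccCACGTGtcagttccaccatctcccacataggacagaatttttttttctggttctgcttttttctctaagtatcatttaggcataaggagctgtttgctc
Mbnl2, chr14:120275469-120275668, plus strand: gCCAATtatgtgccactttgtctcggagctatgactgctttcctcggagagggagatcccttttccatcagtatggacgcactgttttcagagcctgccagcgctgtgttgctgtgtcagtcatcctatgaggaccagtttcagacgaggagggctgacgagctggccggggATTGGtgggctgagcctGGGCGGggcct

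The windows had little in common. Snrpa held E-boxes and a TATA box, Snrpd3 a CCAAT box, Sf3a3 none of the searched motifs, Mbnl1 an E-box, a CCAAT box and a TATA box, and Mbnl2 CCAAT and GC boxes. The GC content was 52.5% in Snrpa, 62.5% in Sf3a3, 59% in Snrpd3, 37.5% in Mbnl1 and 57.5% in Mbnl2. Over the 58 matched genes the GC box was found in 55.2% of windows and the CCAAT box in 44.8%, against 31.3% and 30.0% of 27025 promoters of the same length. The E-box was found in 10.3% against 5.28%, and the TATA box in 10.3% against 10.6%. A match describes the letters and is not evidence of a bound factor.

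The Sm and related snRNP proteins form the protein core of U1, U2, U4 and U5 particles. Of 9 genes 8 were tested, 0 rose, 3 fell and 5 did not pass, with a median of -0.16. Snrpa, which encodes a protein specific to U1 snRNP, was at 8.94, 8.96 and 8.50 on the E16.5 arrays, against 9.46, 9.67 and 9.51 on the E11.5 arrays. All E16.5 arrays lay below all E11.5 arrays, and the stage means were 9.55, 9.42, 9.39, 9.24, 9.01 and 8.80 in the order of the days. Its change of -0.75 (SE 0.13, adjusted p = 8.76e-05) was the lowest of the 64. Its other probe changed by -0.26 (SE 0.17, adjusted p = 0.363).

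Snrpb and Snrpd3 encode proteins of the Sm ring that wraps the small nuclear RNA. Snrpb was at 10.03, 9.93 and 9.42 at E16.5, against 10.53, 10.47 and 10.30 at E11.5 (change -0.64, SE 0.15, adjusted p = 0.00295). Snrpd3 was at 9.75, 9.93 and 9.46 at E16.5, against 10.40, 10.38 and 10.19 at E11.5 (change -0.61, SE 0.14, adjusted p = 0.00174). Neither gene's arrays overlapped between these stages, and in both replicate 3 was the lowest E16.5 array.

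Other proteins of the same ring did not follow. Snrpd2 averaged 11.62 ± 0.24 at E16.5 and 11.66 ± 0.11 at E11.5 (SD, n = 3 each), a change of -0.04 (SE 0.13). Snrpg changed by -0.17 (SE 0.15), Snrpf by -0.14 (SE 0.13) and Snrpd1 by 0.07. Sizes of change thus varied within the ring, and the differences between its genes were not tested.

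SF3A and SF3B are the parts of U2 snRNP that hold the branch point. All 9 of their genes were tested, and 4 fell, with a median of -0.23. On the probes with the highest mean all 9 changes were below 0, but not on every probe. Sf3b6 changed by -0.19 on that probe and by 0.12 on its other tested probe. Sf3a3, a subunit of SF3A, was at 9.58, 9.50 and 9.44 at E16.5, against 10.24, 10.20 and 10.11 at E11.5. The SD of the 3 arrays was 0.07 at E16.5 and 0.06 at E11.5, beside a change of -0.67 (SE 0.11, adjusted p = 0.000102). Its stage means were lower on every later day, at 10.18, 10.09, 9.93, 9.91, 9.70 and 9.51 in the order of the days. Another probe of Sf3a3, above background on 11 arrays, changed by 0.03 (SE 0.15, adjusted p = 0.93), and with both averaged the change was -0.32 (adjusted p = 0.0329).

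Sf3b5, the small subunit of SF3B, averaged 10.09 ± 0.19 at E16.5 and 10.64 ± 0.12 at E11.5 (change -0.55, SE 0.12, adjusted p = 0.00179), and its other probe changed by -0.51 (SE 0.11). Sf3b4, an RNA-binding subunit, averaged 8.45 ± 0.31 at E16.5, with replicate 3 lowest at 8.10, and 9.09 ± 0.08 at E11.5 (change -0.64, SE 0.16, adjusted p = 0.00398). Sf3a1 was at 9.05, 8.90 and 8.59 at E16.5, against 9.41, 9.23 and 9.34 at E11.5 (change -0.48, SE 0.13, adjusted p = 0.00896). All 3 had no overlap between the stages. The call of Sf3a1 was lost without E16.5 replicate 3 (adjusted p = 0.0727) and with the mean of its probes (change -0.26, adjusted p = 0.0604).

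The remaining SF3 genes did not pass between E16.5 and E11.5. Sf3b2, which sits beside the branch point, averaged 10.10 ± 0.03 at E16.5 and 10.31 ± 0.10 at E11.5 (change -0.22, SE 0.12, adjusted p = 0.235), with no overlap between arrays. Sf3b1, the subunit that contacts the branch point and is often mutated in blood cancers, was near background, above it on 12 of 18 arrays, and changed by -0.23 (adjusted p = 0.326). Its probe thus says little about this gene.

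**Figure D2:**
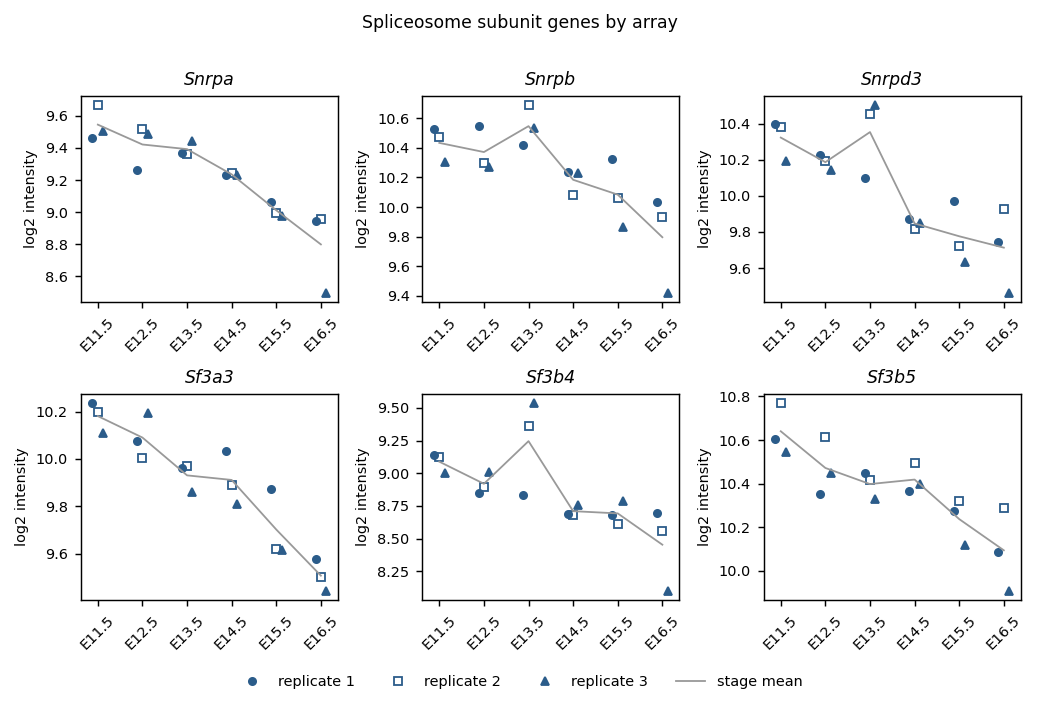
log2 intensity by stage on each of the 18 arrays for Snrpa, Snrpb, Snrpd3, Sf3a3, Sf3b4 and Sf3b5, with markers for replicates 1 to 3 and a line through the stage means. In every panel the 3 E16.5 arrays lie below the 3 E11.5 arrays, and E16.5 replicate 3 is the lowest E16.5 point.

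These 6 genes, Snrpa, Snrpb, Snrpd3, Sf3a3, Sf3b4 and Sf3b5, were called lower in all 29 alternative settings tried, including each array left out in turn. With probes averaged the changes were smaller in Sf3a3 (-0.32), Sf3b4 (-0.39) and Snrpa (-0.50). None of the other 11 calls was kept in every one.

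PRPF proteins belong mostly to the U4/U6.U5 particle and to the catalytic spliceosome. Of 12 genes 1 rose, 1 fell and 10 did not pass, with a median of -0.08. Prpf6, a bridge between the parts of the U4/U6.U5 particle, was at 8.53, 8.20 and 8.28 at E16.5, against 8.83, 8.68 and 8.83 at E11.5 (change -0.44, SE 0.14, adjusted p = 0.0267). Prpf18, which acts in the second step of splicing, was at 8.72, 8.85 and 8.67 at E16.5, against 8.39, 8.33 and 8.50 at E11.5 (change 0.34, SE 0.12, adjusted p = 0.0433). Neither gene's stages overlapped, but both calls were sensitive to single arrays. Prpf6 was lost without E11.5 replicate 1 (adjusted p = 0.0893), E11.5 replicate 3 (0.0876), E16.5 replicate 2 (0.116) or E16.5 replicate 3 (0.0805). Prpf18 was called in 17 of 29 alternatives, with adjusted p between 0.00743 and 0.158. Among the arrays that decided it were E11.5 replicate 2 (0.145 without it) and E16.5 replicate 2 (0.158).

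Prpf8, the large protein at the catalytic centre, averaged 8.29 ± 0.19 at E16.5 and 8.65 ± 0.14 at E11.5 (change -0.35, SE 0.14, adjusted p = 0.0876). Prpf38b changed by -0.27 (SE 0.13, adjusted p = 0.185). Prpf19, a ubiquitin ligase of the catalytic spliceosome, went the other way, at 11.25, 10.97 and 10.65 at E16.5, against 10.75, 10.57 and 10.74 at E11.5 (change 0.27, SE 0.14, adjusted p = 0.2). Of its E16.5 arrays 2 lay above all E11.5 arrays and replicate 3 lay among them, and it passed only without E16.5 replicate 3 among the alternatives (adjusted p = 0.0358).

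Of 10 SR protein genes 9 were tested, 0 rose, 1 fell and 8 did not pass, with a median of -0.11. Srsf6, an activator of exon use, was at 9.14, 9.11 and 9.19 at E16.5, against 9.60, 9.34 and 9.47 at E11.5, without overlap. Its change of -0.32 (SE 0.11, adjusted p = 0.0396) was called in 20 of 29 alternatives. With its probes averaged the change was -0.15 (adjusted p = 0.337), as its other probe changed by 0.03 (SE 0.13). It was also lost, among others, without E11.5 replicate 1 (adjusted p = 0.184) and without E16.5 replicate 2 (0.107).

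The best-studied SR genes had changes below 0 that did not pass. Srsf1, long known as ASF/SF2, averaged 11.27 ± 0.09 at E16.5 and 11.57 ± 0.19 at E11.5 (change -0.29, SE 0.12, adjusted p = 0.0876). Srsf2, which deletion studies in mice tie to heart muscle function, was at 11.70, 11.64 and 11.15 at E16.5, against 11.93, 11.71 and 11.76 at E11.5 (change -0.31, SE 0.14, adjusted p = 0.142). A second Srsf2 probe fell by 0.55 on the log2 scale (SE 0.17, adjusted p = 0.0238), and the remaining tested probe, dimmer and above background on 14 arrays, changed by 0.10 (SE 0.18). Srsf11 changed by -0.40 (SE 0.18, adjusted p = 0.13). Srsf3 changed by 0.22 (SE 0.16, adjusted p = 0.419), with E16.5 arrays at 8.09, 8.01 and 8.70, of which only replicate 3 lay above the E11.5 arrays.

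All 19 hnRNP genes were tested. Of them 0 rose, 2 fell and 17 did not pass, with a median of -0.06 and 12 changes below 0. Hnrnpa1, a repressor of exon use and the best known of the family, was at 9.84, 9.86 and 9.65 at E16.5, against 10.48, 10.40 and 10.45 at E11.5. The stages lay far apart (change -0.66, SE 0.13, adjusted p = 0.000639), and the decline was seen on the later days, with means of 10.44, 10.29, 10.54, 10.22, 9.90 and 9.78 in the order of the days. Its other probes changed by -0.30 and -0.20, and with the mean of its probes the call was lost (change -0.38, adjusted p = 0.0611).

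Hnrnpm was at 11.28, 11.31 and 10.93 at E16.5, against 11.77, 11.57 and 11.68 at E11.5 (change -0.50, SE 0.14, adjusted p = 0.00974). It was lost without E11.5 replicate 1 (adjusted p = 0.0512) or E16.5 replicate 3 (0.0752), while a second probe fell by 0.51 (SE 0.12, adjusted p = 0.00253). Hnrnpl, which binds CA-rich RNA, averaged 10.15 ± 0.18 at E16.5 and 10.55 ± 0.06 at E11.5 (change -0.41, SE 0.19, adjusted p = 0.144). Its arrays did not overlap between the stages, and its spread was widest at E13.5 (SD 0.64).

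Among the other hnRNP genes, Hnrnpab averaged 12.33 ± 0.24 at E16.5 and 12.61 ± 0.22 at E11.5 (change -0.28, SE 0.14, adjusted p = 0.181). Its other tested probe was called lower (change -0.34), and with both averaged the fall passed (change -0.31, adjusted p = 0.0228). Hnrnpc, which binds uridine tracts in introns, averaged 11.85 ± 0.01 at E16.5 and 12.03 ± 0.02 at E11.5 (change -0.18, SE 0.12, adjusted p = 0.369). Hnrnpr had the highest change of the family, 0.34 (SE 0.18, adjusted p = 0.208). Probes of Hnrnpa2b1, a close relative of Hnrnpa1, disagreed. The probe with the highest mean changed by 0.09, and another fell by 0.60 (SE 0.15, adjusted p = 0.00467), at 5.90 ± 0.09 at E16.5 and 6.50 ± 0.22 at E11.5.

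Among the tissue regulators, rises were more frequent than falls on the probes with the highest mean. All 7 were tested, 4 rose, 1 fell and 2 did not pass, with a median of 0.38. Rbfox1, a neuron and muscle splicing regulator that binds UGCAUG in introns, was at 7.69, 7.49 and 7.23 at E16.5, against 6.55, 6.48 and 6.46 at E11.5. Its change of 0.98 (SE 0.17, adjusted p = 9.67e-05), 1.97-fold, was the highest of all 64 genes, and no array overlapped. The means were 6.49, 6.66, 6.83, 6.79, 7.31 and 7.47 in the order of the days, so most of the rise lay after E14.5.

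Rbfox1 was also the only gene here with probes called in opposite directions. A dimmer probe, above background on 5 of 18 arrays, averaged 4.54 ± 0.20 at E16.5 and 4.98 ± 0.08 at E11.5 and fell by 0.44 (SE 0.15, adjusted p = 0.0392). With the mean of the probes the rise was not called (change 0.27, adjusted p = 0.145).

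Rbfox2, which binds the same RNA element, moved against Rbfox1. It was at 8.59, 8.39 and 7.85 at E16.5, against 8.93, 8.91 and 8.85 at E11.5 (change -0.62, SE 0.19, adjusted p = 0.0217), and a second probe fell by 0.59 (SE 0.12, adjusted p = 0.000916). The stages did not overlap on the first probe. Its call was lost without E11.5 replicate 1 (adjusted p = 0.0657), E11.5 replicate 2 (0.0595) or E16.5 replicate 3 (0.174). On E13.5 replicates 2 and 3 it was at 8.05 and 7.79, close to its lowest E16.5 array, and on E13.5 replicate 1 it was at 8.76.

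Both muscleblind genes rose. Mbnl1 was at 10.28, 10.26 and 10.43 at E16.5, against 9.96, 9.70 and 9.91 at E11.5 (change 0.46, SE 0.13, adjusted p = 0.00935). Mbnl2 was at 10.88, 10.72 and 10.89 at E16.5, against 10.52, 10.24 and 10.52 at E11.5 (change 0.40, SE 0.12, adjusted p = 0.0185), and its second probe rose by 0.45 (SE 0.13, adjusted p = 0.0139). In both, all E16.5 arrays lay above all E11.5 arrays, the lowest mean was at E12.5 (9.65 and 10.30) and the means were higher on each later day. The call of Mbnl1 was lost without E11.5 replicate 2 (adjusted p = 0.0669) and with the mean of its probes (change 0.20, adjusted p = 0.144). That of Mbnl2 was lost without E11.5 replicate 2 (0.126), E16.5 replicate 1 (0.0556) or E16.5 replicate 3 (0.0585), and with the compared stages alone (0.0516).

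The CELF genes, whose proteins oppose muscleblind proteins on many exons, did not move together. Celf1 averaged 8.68 ± 0.24 at E16.5 and 9.01 ± 0.02 at E11.5, with no overlap between arrays (change -0.34, SE 0.13, adjusted p = 0.0838). A second Celf1 probe for the same transcript, dimmer, fell by 0.40 (SE 0.12, adjusted p = 0.0199). It was the only 1 called of 4 tested Celf1 probes, whose changes ran from -0.40 to -0.13. Celf2 was at 9.13, 9.09 and 9.06 at E16.5, against 8.93, 8.47 and 8.73 at E11.5 (change 0.38, SE 0.13, adjusted p = 0.0431). Celf2 was called in 17 of 29 alternatives, and its other tested probes changed by -0.41, -0.26 and 0.01. With their mean the sign turned (change -0.07, adjusted p = 0.74). Without E11.5 replicate 2, its lowest array, the adjusted p was 0.249.

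Rbm24, a muscle protein needed for the splicing of sarcomere transcripts, was at 6.02, 6.05 and 5.38 at E16.5, against 5.75, 5.90 and 5.63 at E11.5. The E16.5 arrays lay on both sides of the E11.5 arrays, and the change was 0.06 (SE 0.15, adjusted p = 0.865). Its stage means were 5.76, 5.74, 5.85, 5.99, 5.82 and 5.82 in the order of the days, a range of 0.25, and no step between neighbouring days was called. Among 775 genes whose stage means ranged over more than 1 on the log2 scale, those closest to Rbm24 in Pearson correlation of the 6 stage means were Sln (r = 0.950), Eln (0.881), Mir17hg (0.824), Unc13c (0.791) and Tox3 (0.790). With so small a range in Rbm24 these values describe the means only.

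**Figure D3:**
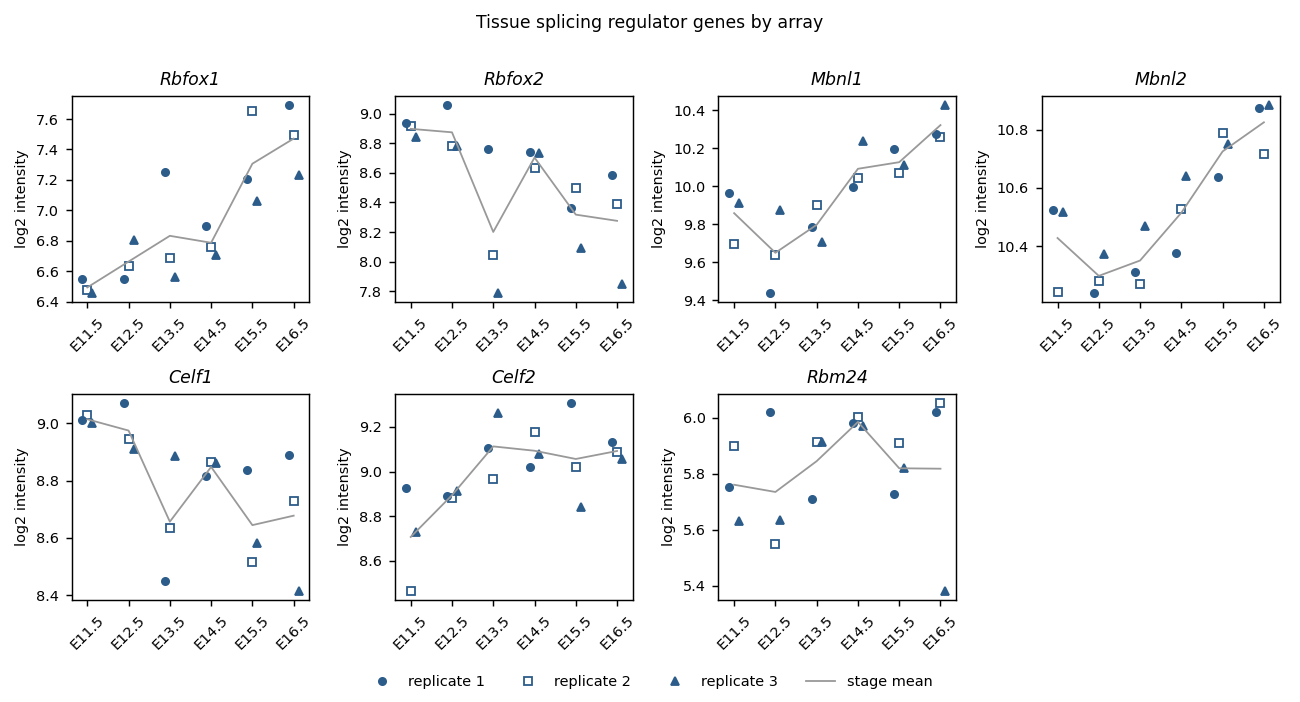
log2 intensity by stage on each of the 18 arrays for Rbfox1, Rbfox2, Mbnl1, Mbnl2, Celf1, Celf2 and Rbm24, with markers for replicates 1 to 3 and a line through the stage means. Rbfox1, Mbnl1 and Mbnl2 are highest at E16.5, and E13.5 replicates 2 and 3 of Rbfox2 lie below replicate 1.

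Over all 6 stages the linear trend gave more calls than the last stage against the first. Of the 64 genes 5 rose and 18 fell (7.81% and 28.1%), beside 14.5% and 16.4% of all named genes. Falls were thus again a larger share than in the background and rises a smaller one, differences that were not tested. The trend added Hnrnpl (-0.12 per day, SE 0.03, adjusted p = 0.00478), Prpf8 (-0.08, SE 0.02, adjusted p = 0.0171), Sf3b2 (-0.06, SE 0.02, adjusted p = 0.0177), Srsf11 (-0.10, SE 0.03, adjusted p = 0.014), Srsf1 (-0.06, SE 0.02, adjusted p = 0.043) and Celf1 (-0.07, SE 0.02, adjusted p = 0.0218) to the falls. The steepest slopes were 0.19 per day in Rbfox1 (SE 0.03, adjusted p = 8.39e-06) and -0.15 per day in Snrpa (SE 0.02, adjusted p = 8.57e-06). In all 28 alternatives run for the trend 14 of its 23 calls were kept, namely Hnrnpa1, Hnrnpl, Hnrnpm, Mbnl1, Mbnl2, Prpf18, Rbfox1, Rbfox2, Sf3a3, Sf3b4, Sf3b5, Snrpa, Snrpb and Snrpd3. The calls of Mbnl1, Mbnl2, Rbfox2 and Prpf18, which single arrays decided between E16.5 and E11.5, were among them.

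A course that bends, high or low in the middle days, was not called in any gene (0 higher and 0 lower, beside 2.45% and 2.8% of all named genes). At an unadjusted p under 0.05 the limma counts were 3 and 9 (4.69% and 14.1%, beside 9.77% and 10.1% of all named genes). The limma F test over the stages called 16 of 64, or 25%, against 29% of all named genes.

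**Figure D4:**
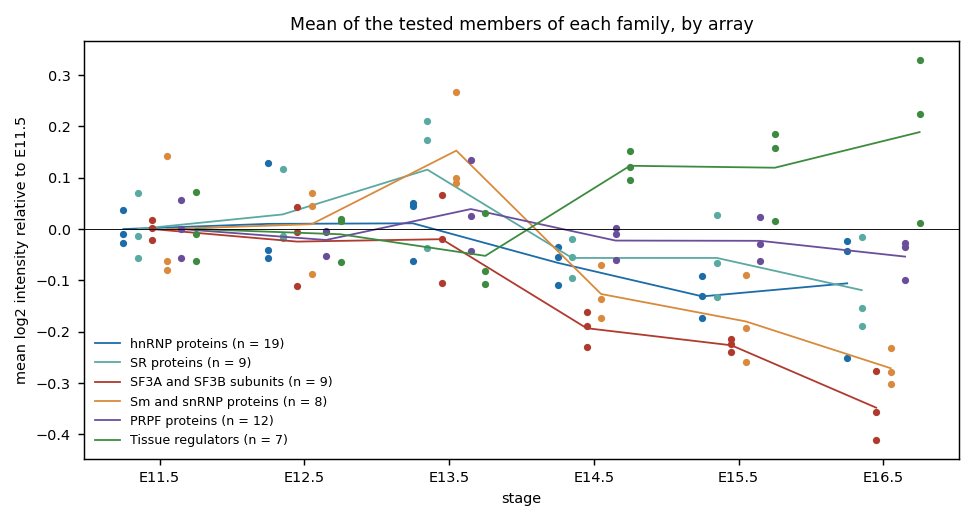
Mean log2 intensity of the tested genes of each family on each array, relative to the E11.5 mean, with 3 points per stage and a line through the stage means. At E16.5 the SF3 and Sm families are lowest and the tissue regulators highest, and the Sm family is highest at E13.5.

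The family means ran in different directions after E13.5. At E16.5, relative to E11.5, the mean over the 9 SF3 genes was -0.35 ± 0.07 and that over the 8 Sm and snRNP genes -0.27 ± 0.04 (SD, n = 3 arrays). The means of the SR, hnRNP and PRPF families were -0.12 ± 0.09, -0.11 ± 0.13 and -0.05 ± 0.04, and that of the tissue regulators was 0.19 ± 0.16. The tissue regulators had the widest spread between arrays at that stage. At E13.5 the Sm and snRNP mean was 0.15 ± 0.10, its highest, and at E14.5 it was -0.13 ± 0.05.

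Between neighbouring days calls came only at E14.5 against E13.5, where 0 genes rose and 5 fell (beside 1.71% and 2.13% of all named genes). They were Prpf40b, Hnrnpl, Hnrnph1, Snrpd3 and Srsf4. Hnrnpl was at 10.36, 10.28 and 10.33 at E14.5, against 10.39, 11.22 and 11.64 at E13.5 (change -0.76, SE 0.19, adjusted p = 0.0277). Hnrnph1, which binds runs of G, averaged 9.17 ± 0.07 at E14.5 and 9.86 ± 0.37 at E13.5, where replicate 1 was at 9.45 and replicate 3 at 10.15 (change -0.69, SE 0.17, adjusted p = 0.0295). Prpf40b, a U1-associated factor, was at 7.07, 6.91 and 6.86 at E14.5, against 7.13, 7.62 and 8.02 at E13.5 (change -0.64, SE 0.16, adjusted p = 0.0268). In all 3 genes every E13.5 array was higher than any array of E14.5. Replicate 1 was the lowest E13.5 array and so the closest to those of E14.5. Snrpd3 fell by 0.51 (SE 0.14, adjusted p = 0.0402) and Srsf4 by 0.60 (SE 0.16, adjusted p = 0.041).

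These 5 calls depended on which arrays were in the fit. Without E13.5 replicate 1, 3 genes rose and 11 fell at E14.5 against E13.5, and without E13.5 replicate 2 or 3, or any single E14.5 array, 0 fell. The changes stayed below 0 in all 29 alternatives but varied in size. They ran from -1.11 to -0.48 in Hnrnpl, -0.90 to -0.31 in Hnrnph1 and -0.87 to -0.32 in Prpf40b. Srsf4 ran from -0.80 to -0.40 and Snrpd3 from -0.63 to -0.43. Hnrnph1 changed by -0.66, -0.72 and -0.70 without E14.5 replicate 1, 2 or 3, and by -0.63 and -0.55 without E13.5 replicate 2 or 3. Hnrnpl changed by -0.69 without E13.5 replicate 2 and by -0.48 without E13.5 replicate 3. With E12.5 replicate 1 and E13.5 replicate 1 both left out, a choice made after seeing the data, 3 rose and 11 fell, and at E13.5 against E12.5 5 rose and 2 fell. None of the 5 calls was kept in every alternative.

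**Figure D5:**
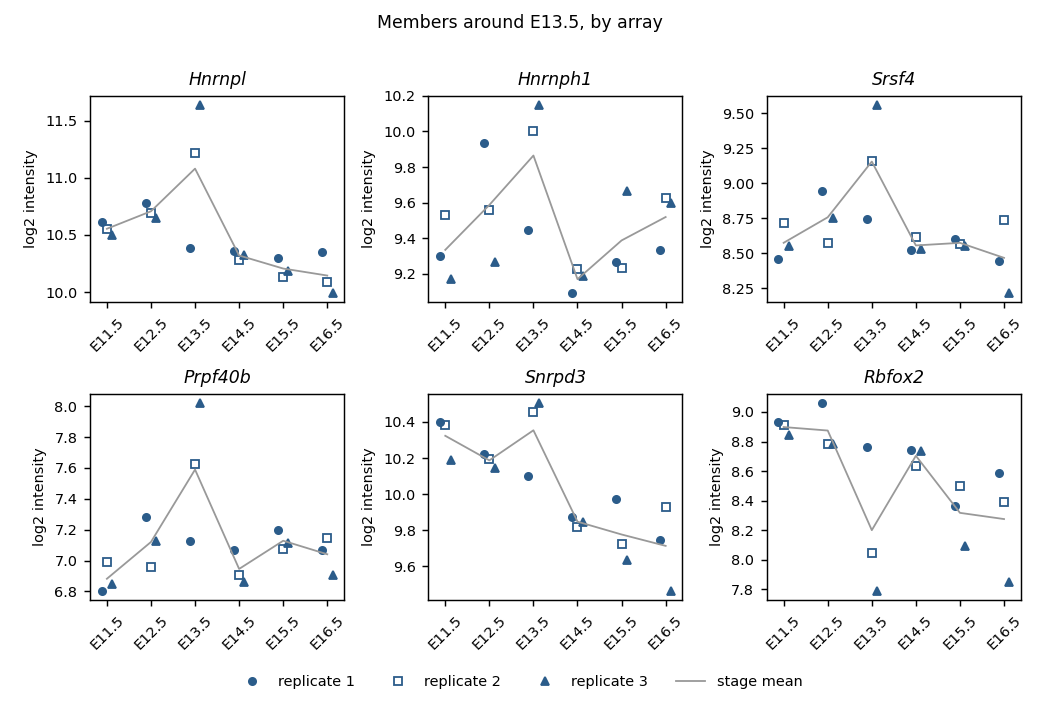
log2 intensity by stage on each of the 18 arrays for the 5 genes lower at E14.5 than at E13.5, Hnrnpl, Hnrnph1, Srsf4, Prpf40b and Snrpd3, and for Rbfox2. In the 5 genes E13.5 replicates 2 and 3 lie above replicate 1, in Rbfox2 below it.

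The other steps had no calls among these genes. E12.5 against E11.5 gave 0 higher and 0 lower (beside 1.04% and 1.06% of all named genes). E13.5 against E12.5 gave 0 and 0 (beside 1.23% and 1.42%). So did E15.5 against E14.5 (beside 2.55% and 1.71%) and E16.5 against E15.5 (beside 0% and 0%). At an unadjusted p under 0.05, E12.5 against E11.5 gave 1 and 0 (1.56% and 0%, beside 5.76% and 6.72% of all named genes). At that threshold E13.5 against E12.5 gave 5 and 4 (7.81% and 6.25%, beside 9.45% and 9.09%). E15.5 against E14.5 gave 2 and 1 (3.1% and 1.6%, beside 8.29% and 7.51%). E16.5 against E15.5 gave 1 and 0 (1.56% and 0%, beside 1.95% and 2.28%). All counts are from limma. The lowest adjusted p in these steps was 0.0629, for Rbfox2 at E13.5 against E12.5 (change -0.67, SE 0.19).

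Different probes of a gene did not always agree. Of 43 genes with several tested probes 17 had probes with opposite signs between E16.5 and E11.5, and in 1 of them, Rbfox1, both signs were called. Second probes of Rbfox2, Mbnl2, Hnrnpm, Snrpb (change -0.67, SE 0.14), Sf3b4 (-0.44, SE 0.11) and Sf3b5 passed in the same direction as the first. Further probes of Snrpb (-0.30, SE 0.17), Sf3b4 (-0.09, SE 0.15) and Hnrnpm (-0.31, SE 0.13) did not pass. A probe reads only the transcripts that hold its target, and which isoforms these are was not analysed here.

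Other genes of splicing, outside these families, rose less often and fell somewhat more often than the background, a difference that was not tested. Of 120 listed genes 102 were tested, 2 rose (1.96%, beside 11.4% of all named genes) and 17 fell (16.7%, beside 12.8%) between E16.5 and E11.5, with a median of -0.16 against -0.01. By part of the machine, the U1, U2, U4/U6 and U5 proteins gave 0 rises and 4 falls of 15, the factors that recognise the 3' site 0 and 1 of 9, the LSm proteins 0 and 1 of 7, the catalytic factors 0 and 2 of 17, the exon junction complex 0 and 2 of 6, SR-like proteins and their kinases 1 and 2 of 18, and other regulators 1 and 5 of 30. In lists this small, shares of falls such as 1 of 9 or 2 of 17 are near the background. Txnl4a, a U5 protein, averaged 9.12 ± 0.15 at E16.5 and 9.88 ± 0.08 at E11.5 (change -0.76, SE 0.11). U2af1, which reads the 3' end of the intron, averaged 7.48 ± 0.11 at E16.5 and 8.26 ± 0.13 at E11.5 (change -0.78, SE 0.13). Eftud2, the U5 GTPase, changed by -0.72 (SE 0.12), Cwc22 by -0.66 (SE 0.13) and Eif4a3, of the exon junction complex, by -0.59 (SE 0.14). Clk1, a kinase of SR proteins, was 1 of the 2 that rose, at 8.70 ± 0.31 at E16.5 and 7.99 ± 0.01 at E11.5 (change 0.71, SE 0.17, adjusted p = 0.0033).

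Transcripts known as splicing targets of Rbm20 in the heart were measured at the level of the gene, not the isoform. Of 14 tested 3 rose (21.4%, beside 11.4% of all named genes), 1 fell (7.14%, beside 12.8%) and 10 did not pass, with a median of 0.24. With 14 genes these shares say little. Lmo7 rose (change 1.27, SE 0.17), as did Ryr2, the calcium release channel (0.41, SE 0.13, adjusted p = 0.0256), and Camk2g (0.40, SE 0.14, adjusted p = 0.04), while Pdlim3 fell by 1.03 (SE 0.19, adjusted p = 0.000284). Ttn, the giant sarcomere protein, changed by 0.19 (SE 0.16, adjusted p = 0.484).

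Markers of several cell types moved over the same days, and their part in the changes above was not tested. Relative to the E11.5 mean, the mean of the fibroblast list was between 1.85 and 2.27 on the E16.5 arrays, against -0.19 to 0.23 on the E11.5 arrays, with 10 of 11 tested genes higher and 0 lower, and Postn above background on 0 arrays. The endothelial mean was between 0.55 and 1.22 at E16.5, against -0.11 to 0.09 at E11.5 (8 higher and 1 lower of 12). The platelet mean was between -2.41 and -2.14 at E16.5, against -0.27 to 0.25 at E11.5 (0 higher and 6 lower of 6). The cardiomyocyte mean moved far less, between -0.20 and -0.06 at E16.5, against -0.05 to 0.04 at E11.5 (3 higher and 2 lower of 15). Single genes of that list changed by between -2.48 and 1.05, and 2 fell and 1 rose by more than a factor of 2.

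The erythroid mean was between 2.06 and 3.13 at E16.5, against -0.47 to 0.55 at E11.5, one of the widest shifts of any list here, with 5 genes higher and 2 lower of 7. The epicardial list gave 2 higher and 5 lower of 9, and its mean was between -0.32 and -0.18 at E16.5, against -0.09 to 0.14 at E11.5. Smooth muscle and pericyte genes gave 3 higher and 1 lower of 7, leukocyte genes 0 higher and 3 lower of 4, and neural genes 0 and 0 of 2. Proliferation genes gave 1 higher and 3 lower of 16, with a median of 0.00 and a mean between -0.10 and 0.04 at E16.5, against -0.01 to 0.02 at E11.5. The 3 that fell were the replication helicase genes Mcm2 (change -0.62), Mcm4 (-0.37) and Mcm5 (-0.51). At E13.5 the epicardial mean stood at 0.22 and the fibroblast mean at 1.14, and at E14.5 they stood at 0.04 and 1.03. The endothelial mean moved further, from 0.36 at E13.5 to -0.20 at E14.5, while the erythroid mean went up from 2.60 to 3.13.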

How the data were processed

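RNA from sorted cells was hybridized to 18 Illumina arrays, 3 at each of 6 stages. The deposited values are intensities on a linear scale. The authors deposited them after quantile normalization, since the sorted columns agreed to within 0.0874%. The submitters' processing notes name GenomeStudio 2011.1, and other upstream steps are not given in the sources used here. A further deposited table has 36 columns under names that match no sample and was not used. Deposited intensities were corrected with normexp (limma 3.58.1, R 4.3.3, offset 16) and put on log2. Probes above an intensity of 105.4, the mode plus 1.64 SD of the spread below it, on at least 3 arrays were kept, 25362 of 45281. The detection p of the unused table gave no filter. The number of arrays limits the precision.

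Stage means were fitted with limma (lmFit, eBayes) over all arrays and adjusted over all tested probes. A gene is represented by its probe with the highest mean. Genes were named from the platform annotation. Named with full values were, in each family, up to 5 genes with the smallest p at E16.5 against E11.5, all tissue regulators, the 3 smallest adjusted p of each day step, the 5 brightest genes, and genes with opposing probe calls. Sf3b1, Snrpd1, Srsf4, Hnrnpa2b1 and second probes were added after their values were seen. Rbm20 had no probe under its symbol, and Hnrnph2 was left out as a gene on a sex chromosome. The genes and lists were chosen with earlier results of these data known. Same-numbered arrays deviated together with every correlation over 0.1 in 3 of 15 stage pairs, among neighbouring days only in E16.5 with E15.5 (0.28, 0.19 and 0.33). Lower correlations could still exceed all those between different numbers. This held in E16.5 with E11.5 (0.09, 0.15 and 0.03, against at most 0.01) and E14.5 with E13.5 (0.15, 0.12 and 0.07, against at most 0.004). It did not hold in E12.5 with E11.5 or E13.5 with E12.5. The fit was tested on simulated data. Alternatives covered the background correction, the filter, the probe choice, array weights, robust fitting, centring, the arrays in the fit and a replicate block.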

Additional observations from a re-analysis of the deposited data

How the results depend on the processing

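At E16.5 against E11.5 the count of 12 lower genes stayed between 11 and 14 under the settings that did not leave out single arrays, and leaving out 1 array gave 7 to 13, with 7 without E16.5 replicate 3. The 5 higher genes came to 2 with gene probes averaged, 3 without a filter on dim probes and 2 with only the stages compared. Leaving out 1 array gave 1 to 5 higher. The linear trend gave 4 to 6 higher and 15 to 19 lower when 1 array was left out, and the median change -0.16 to -0.0599. The F test called 25 genes with array weights and 13 to 23 with 1 array left out. The quadratic trend gave 1 lower with array weights, and 0 to 1 higher and 0 to 3 lower with 1 array left out. E13.5 against E12.5 gave 1 higher and 1 lower with array weights, 1 higher with the mean of probes, 1 lower with the replicate block, and 5 higher and 2 lower without the E12.5 and E13.5 arrays numbered 1. Leaving out 1 array gave 0 to 4 higher and 0 to 2 lower. E14.5 against E13.5 gave 3 higher and 12 lower with array weights, 1 higher without background correction or with an offset of 50, 3 lower with the mean of probes, 1 lower with only the stages compared, and 3 higher and 11 lower without the arrays numbered 1. Leaving out 1 array gave 0 to 3 higher and 0 to 11 lower. E15.5 against E14.5 gave 1 higher with array weights and 0 to 1 with 1 array left out. With the replicate block 5 genes were higher and 12 lower at E16.5 against E11.5, and 0 and 0 at E16.5 against E15.5. Of the day steps this last had the highest correlations between same-numbered arrays. Apart from E13.5 against E12.5, the block moved no count of calls by over 1.5 times. Of 1044 comparisons of 36 named genes with 29 alternatives 973 kept direction and call, 51 lost the call, 13 gained one and 7 turned sign. These were Celf2 (-0.0683) and Prpf40b (-0.0399) with the mean of probes, Rbm24 without E11.5 replicate 3 (-0.01), E16.5 replicate 1 (-0.04) or E16.5 replicate 2 (-0.0597), with up to 0.28 when 1 array was left out, and Snrpd2 without E11.5 replicate 2 (0.02) or E16.5 replicate 1 (0.0747), down to -0.17. The cause of these shifts was not tested. Signal near background limits Sf3b1, Sf3a2, Snrpb2, Hnrnpu and Hnrnpa3.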
